A study of Mus musculus with 8 samples.

Results

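The genes examined here are the sodium, chloride, bicarbonate and proton exchangers and cotransporters of the renal cortex, taken as every gene of the Slc4, Slc8, Slc9, Slc12, Slc24 and Slc26 families by its symbol. The count tables held 48 of them among 22609 genes, and 37 reached at least 10 counts in 4 or more libraries. RNA-Seq had been performed on kidney cortex of 4 aged and 4 young male C57BL6 mice, one library per mouse, to find mRNAs that differ with age. By their labels the aged mice were 30 months old and the young mice 5 months old, and none of the mice received a treatment or carried a modified allele. The methods of the study give a somewhat higher mean age for the aged mice than the labels do.

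These families move ions across tubule cell membranes by exchange or by cotransport. Slc9 proteins swap sodium for protons, Slc26 proteins carry chloride, sulfate, oxalate and bicarbonate, and Slc4 proteins carry bicarbonate with sodium or against chloride. Slc12 proteins take up or release chloride together with sodium or potassium, while Slc8 and Slc24 proteins export calcium in exchange for sodium. Along the nephron each segment uses its own set, so the proximal tubule, the thick ascending limb, the distal convoluted tubule and the intercalated cells can be read partly from these genes.

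The 8 libraries held 14820804 to 19821429 read pairs on genes. At this depth 3 counts correspond to 0.151 to 0.202 CPM, the counts scaled to a library of fixed size, taken as the floor, which covers counting error only. Aged mouse 1 stood apart, at -71.5 on the first principal component against -16.3 to 2.26 for the other aged mice and 21.6 to 26.2 for the young mice. Slc14a2, a urea transporter of the renal medulla, had 1817 counts in aged mouse 1 and 433 in young mouse 1, and at most 6 in the other libraries, although every library is labelled as cortex. For several members and partners the log2 fold change is also given without one of these libraries. Every pair of libraries differed by more than sampling noise, with a chi-square of at least 9.43 per gene.

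Before any comparison by age, the level of each member was set per kilobase of its longest coding transcript, as TMM-normalized CPM per kb, which allows genes to be ranked. In young mice Slc4a4, the sodium bicarbonate cotransporter of the basolateral proximal tubule, was highest at 315 ± 23.7 CPM per kb (SD, n = 4). It was followed by the sodium calcium exchanger Slc8a1 at 302 ± 68.7, the thiazide-sensitive cotransporter Slc12a3 at 273 ± 64.3 and the furosemide-sensitive cotransporter Slc12a1 at 228 ± 69.4 CPM per kb. Neighbours in this order lay within each other's SD, whereas Slc4a4 and Slc12a1 did not. In aged mice Slc12a3 had the highest mean, 378 ± 22.7 CPM per kb, and Slc4a4 was at 317 ± 26.2. Slc9a8 stood at rank 8 in young mice and rank 12 in aged mice. At the lower end lay Slc12a8, at 0.170 CPM per kb in young and 0.198 in aged mice. The rank of a gene depends on the annotated transcript length, and the transcripts used for Slc8a1 (2913 nt) and Slc9a3 (2490 nt) hold little beyond the coding part.

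**Figure D1:**
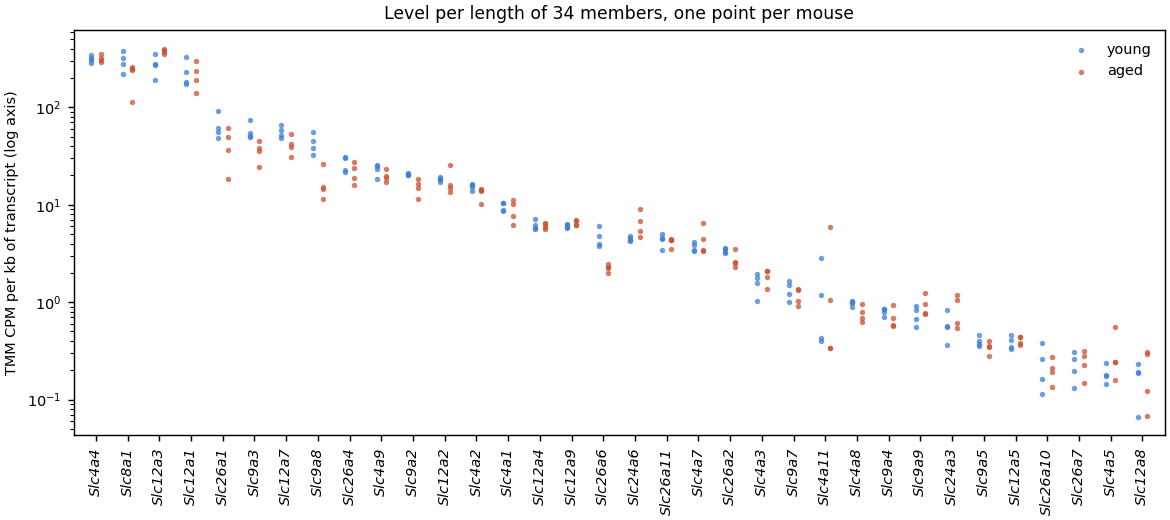
Level of 34 of the 37 members in TMM-normalized CPM per kb of transcript (log axis), with one point per mouse, young in blue and aged in orange, ordered by the young mean. Slc4a4, Slc8a1, Slc12a3 and Slc12a1 lie together at the top, and the aged points of Slc9a8 (mean 16.8) lie below its young points (mean 43.3).

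Two-sided tests with edgeR's quasi-likelihood method on all 13944 genes that passed its filter on low counts included all 37 members. To count as changed, a gene needed both an adjusted p below 0.05 (Benjamini-Hochberg) and a fold change above 1.5. Slc9a8 and Slc26a6 changed, both lower in aged mice, where 0.889% of all genes tested were called lower. No member was called higher by edgeR, DESeq2 or limma-voom, against 1.17% of all genes by edgeR. At an unadjusted p below 0.05, 8 members were lower (21.6% of the 37, against 12.1% of all genes) and 2 were higher (5.41% against 13.4%). All 4 aged mice lay below all 4 young mice in 4 members, Slc9a8, Slc26a6, Slc9a3 and Slc9a2, which is 10.8% of the 37 against 10% of all genes. In 1 member, Slc12a3, the aged mice all lay above, which is 2.70% against 8.85%. The median log2 fold change of the members was -0.13, against 0.03 over all genes tested. Of the 37 members 23 were negative (62.2%, against 45.9% of all genes). By family the median was -0.21 in Slc9, -0.30 in Slc26, 0.01 in Slc4 and -0.01 in Slc12. From whole cortex, fewer cells of a type and less RNA per cell cannot be told apart in any of these values.

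**Figure D2:**
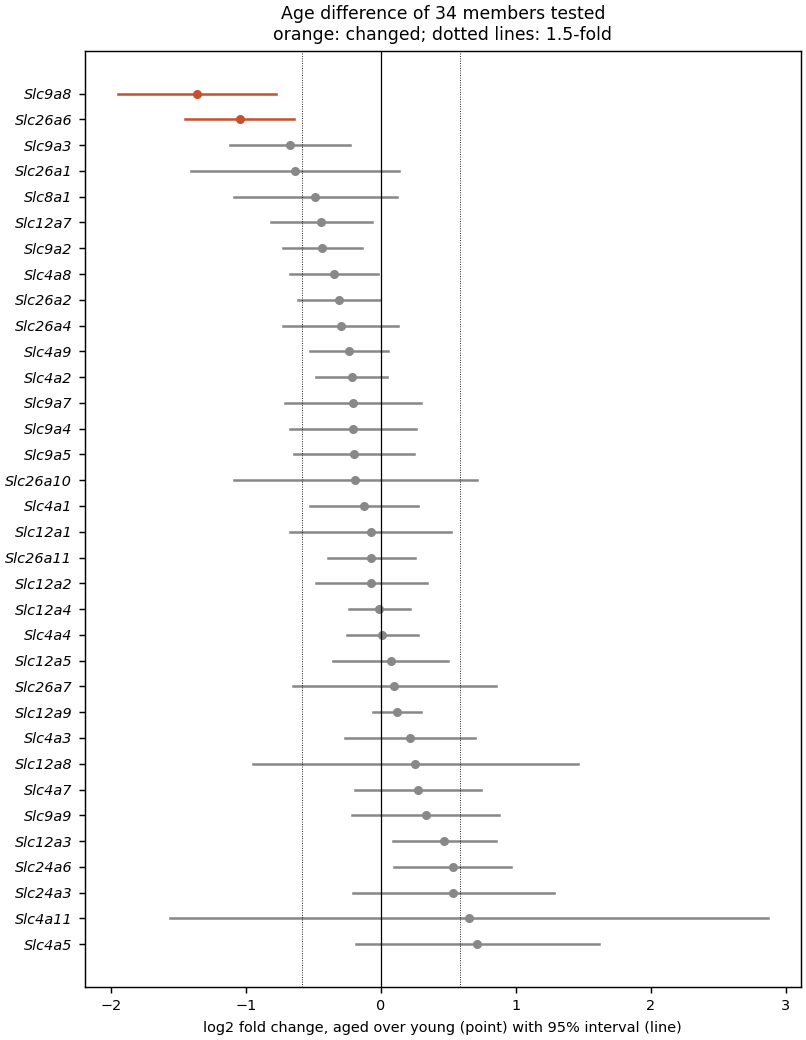
Log2 fold change of 34 of the 37 members, aged over young, as points with 95% intervals as lines, and 1.5-fold marked by dotted lines. The 2 changed members, Slc9a8 at -1.37 and Slc26a6 at -1.05, are orange and their intervals lie left of the dotted line, whereas the interval of Slc4a11 runs from -1.56 to 2.87.

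Among the sodium proton exchangers, Slc9a8 fell. This exchanger (NHE8) is found at the apical membrane of the proximal tubule and in the Golgi. Its gene lies on mouse chromosome 2, at 167247212 to 167302500 on the plus strand of mm9, with 17 exons in a transcript of 4521 nt. In young mice it was at 254, 148, 175 and 207 CPM, and in aged mice at 52.2, 65.6, 68.6 and 118 CPM. The groups did not overlap, and aged mouse 4 was the closest to the young mice. The mean was 2.58-fold lower in aged mice (76.0 ± 28.7 against 196 ± 45.5 CPM, SD, n = 4), and the log2 fold change was -1.37 (SE 0.26, edgeR adjusted p = 0.0390). The adjusted p stayed below 0.05 without aged mouse 1 (0.0314) or aged mouse 4 (0.00448) in the same edgeR test. It rose to 0.0682 without aged mouse 2, 0.0738 without aged mouse 3, and 0.108, 0.0755, 0.0904 and 0.120 without young mouse 1, 2, 3 or 4. Without young mouse 1, 2, 3 or 4 the log2 fold change of Slc9a8 was -1.22, -1.48, -1.42 and -1.34. Over all genes 8, 35, 14 and 12 changed without these mice in turn, against 287 with all mice. With aged mouse 1 and young mouse 1 both left out the log2 fold change was -1.07 (edgeR adjusted p = 0.0803).

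Slc9a3 (NHE3), the main route of luminal sodium uptake in the proximal tubule, lay at a higher level per length than Slc9a8 in young mice (57.3 ± 11.5 against 43.3 ± 10.1 CPM per kb). Without division by length the order was reversed, at a mean of 143 CPM for Slc9a3 against 196 CPM for Slc9a8. The order per length thus depends on the annotated transcripts of 2490 nt for Slc9a3 and 4521 nt for Slc9a8. Its values were 136, 185, 126 and 124 CPM in young mice and 60.7, 94.8, 88.2 and 114 CPM in aged mice. The groups did not overlap, but aged mouse 4 lay close to young mice 3 and 4. The log2 fold change of -0.68 (SE 0.20) did not pass (edgeR adjusted p = 0.0883). DESeq2 called it (adjusted p = 0.0181), and so did edgeR without aged mouse 4 (adjusted p = 0.0441). The summed level of 13 proximal tubule markers was 16712 CPM in aged mouse 1, where Slc9a8, Slc9a3, Slc26a6 and Slc26a1 were lowest, and 25533 to 28923 in the other aged mice and 26133 to 30508 in the young mice. Without aged mouse 1 the log2 fold change of Slc9a3 was -0.53 (edgeR adjusted p = 0.0755).

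Slc9a2 (NHE2), an apical exchanger of the distal nephron, was the most even member in young mice, at 70.2, 73.1, 71.5 and 73.4 CPM. In aged mice it was at 40.0, 51.8, 57.6 and 63.9 CPM, below every young mouse, with aged mouse 1 again lowest. The log2 fold change of -0.44 (SE 0.13, edgeR adjusted p = 0.0921) did not pass, although the adjusted p was 0.0326 by DESeq2 and 0.0416 by limma-voom, with a fold under 1.5. Exchangers of inner membranes did not pass either, with log2 fold changes of -0.21 for the Golgi Slc9a7 and 0.33 for the endosomal Slc9a9. Slc9a4, a basolateral exchanger, and Slc9a5, better known from brain, were low, at 2.64 and 1.81 CPM in aged and 3.06 and 2.07 CPM in young mice. In all, 7 of the 9 Slc9 members tested were negative (77.8%, against 45.9% of all genes). Of the 9, 1 changed (11.1%, against 0.889% of all genes called lower).

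**Figure D3:**
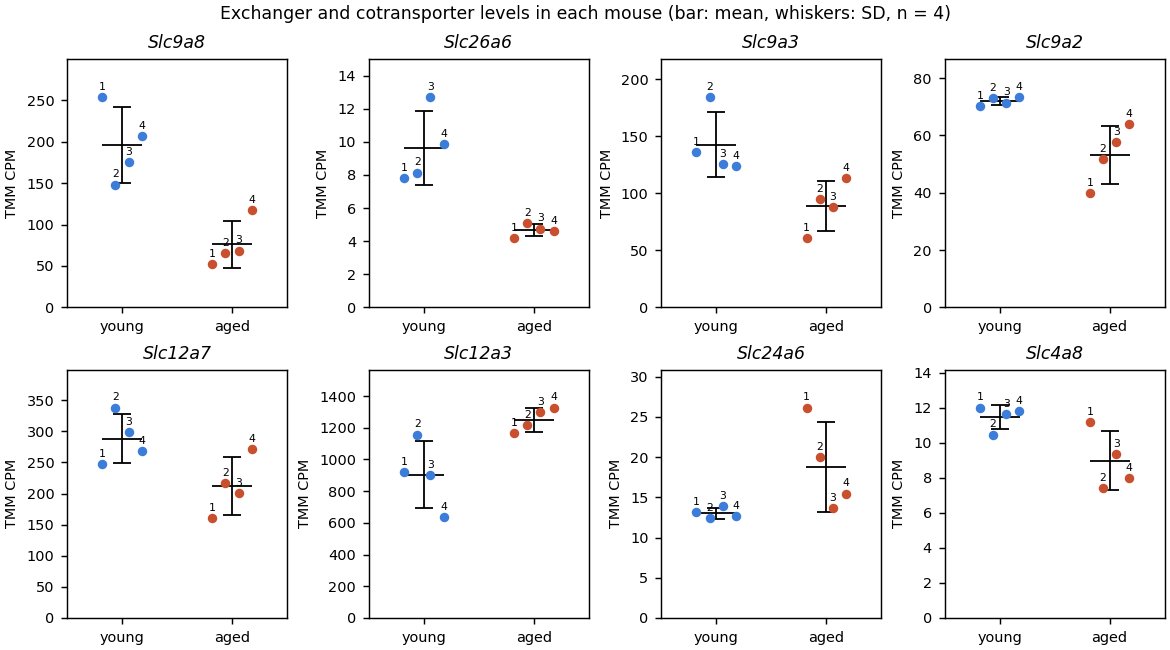
TMM-normalized CPM of 8 members in each mouse, numbered as in the labels, with the group mean as a long bar and the SD as whiskers (n = 4). Slc9a8, Slc26a6, Slc9a3 and Slc9a2 show no overlap with aged mice below young mice, Slc12a3 shows aged mice at 1164 to 1328 above young mice at 636 to 1156, and Slc12a7, Slc24a6 and Slc4a8 overlap.

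Slc26a6, an exchanger of chloride for oxalate, formate and bicarbonate at the brush border, also fell. Its gene lies on chromosome 9, at 108756368 to 108764472 on the plus strand of mm9, with 18 exons in a transcript of 2081 nt. It had 127, 154, 187 and 167 counts in young mice and 85, 78, 89 and 85 counts in aged mice. Normalized, these were 7.83, 8.14, 12.7 and 9.86 CPM against 4.17, 5.07, 4.76 and 4.63 CPM. The groups did not overlap, and the aged mice lay closer together (coefficient of variation 8.01%) than the young mice (23.2%). The mean was 2.07-fold lower in aged mice (4.66 ± 0.373 against 9.64 ± 2.24 CPM, SD, n = 4), and the log2 fold change was -1.05 (SE 0.18, edgeR adjusted p = 0.0311). In the same edgeR test the adjusted p was 0.0274 without aged mouse 1 and 0.0264 without aged mouse 4. It was 0.0538 and 0.0578 without aged mouse 2 or 3, 0.0884, 0.0735, 0.0871 and 0.107 without young mouse 1, 2, 3 or 4, and 0.0562 without aged mouse 1 and young mouse 1 together.

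Of the other Slc26 members none passed. Slc26a1, a basolateral sulfate and oxalate carrier of the proximal tubule, was far higher than Slc26a6 per length, at 64.8 against 4.63 CPM per kb in young mice. It varied widely, at 215, 352, 186 and 235 CPM in young mice and 70.2, 190.5, 139 and 235 CPM in aged mice, and the groups overlapped. Its log2 fold change was -0.64 with all mice (SE 0.34, edgeR adjusted p = 0.266) and -0.39 without aged mouse 1 (adjusted p = 0.325). Slc26a4 (pendrin), the chloride bicarbonate exchanger of non-type A intercalated cells, was at 66.4 ± 16.1 CPM in aged and 81.7 ± 14.8 CPM in young mice (log2 fold change -0.30, and -0.18 without aged mouse 1). Slc26a2, a sulfate carrier, was at 27.6 CPM in aged mouse 1 and 18.1 to 19.97 CPM in the other aged mice, against 25.2 to 28.4 CPM in young mice. Its log2 fold change was -0.31 with all mice (edgeR adjusted p = 0.186) and -0.46 without aged mouse 1 (adjusted p = 0.0253), in both cases under 1.5-fold. Slc26a11, Slc26a10 and Slc26a7 had log2 fold changes of -0.07, -0.19 and 0.10, the latter 2 genes at mean levels near 1 CPM. Thus 6 of the 7 Slc26 members tested were negative (85.7%, against 45.9% of all genes). Of the 7, 1 changed (14.3%, against 0.889% of all genes called lower).

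The start regions of Slc9a8 and Slc26a6, which fell, and of Slc9a3 and Slc12a3, whose groups did not overlap, are shown for orientation. They are RefSeq windows of 300 bases, from 250 before to 50 after the annotated start, on GRCm38.p6, a later build than the mm9 of the counts. The positions are chr2:167421460-167421759 for Slc9a8, chr9:108853793-108854092 for Slc26a6, chr13:74121163-74121462 for Slc9a3 and chr8:94328958-94329257 for Slc12a3, all on the plus strand. Capitals mark the letters of 5 motifs sought on both strands, the E-box CACGTG, the GC box GGGCGG, the CCAAT box CCAAT, the TATA box TATAAA and the cyclic AMP response element TGACGTCA.
Slc9a8: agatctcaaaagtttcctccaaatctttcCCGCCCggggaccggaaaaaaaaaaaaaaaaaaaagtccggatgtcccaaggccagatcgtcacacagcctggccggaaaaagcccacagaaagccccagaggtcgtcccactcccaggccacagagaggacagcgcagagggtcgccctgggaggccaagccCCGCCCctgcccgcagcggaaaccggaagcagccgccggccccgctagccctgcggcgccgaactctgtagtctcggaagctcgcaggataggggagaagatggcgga
Slc26a6: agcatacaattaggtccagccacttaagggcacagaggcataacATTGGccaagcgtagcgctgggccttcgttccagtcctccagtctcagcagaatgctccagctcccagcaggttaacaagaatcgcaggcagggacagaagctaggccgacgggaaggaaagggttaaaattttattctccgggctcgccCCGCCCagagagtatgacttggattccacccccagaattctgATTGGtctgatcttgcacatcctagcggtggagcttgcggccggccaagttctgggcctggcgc
Slc9a3: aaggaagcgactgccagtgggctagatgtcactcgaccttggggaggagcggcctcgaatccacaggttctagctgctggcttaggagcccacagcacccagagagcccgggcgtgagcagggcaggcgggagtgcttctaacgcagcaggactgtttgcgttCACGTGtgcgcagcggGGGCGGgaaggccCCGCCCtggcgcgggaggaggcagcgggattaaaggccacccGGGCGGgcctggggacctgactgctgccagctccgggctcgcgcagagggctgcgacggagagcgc
Slc12a3: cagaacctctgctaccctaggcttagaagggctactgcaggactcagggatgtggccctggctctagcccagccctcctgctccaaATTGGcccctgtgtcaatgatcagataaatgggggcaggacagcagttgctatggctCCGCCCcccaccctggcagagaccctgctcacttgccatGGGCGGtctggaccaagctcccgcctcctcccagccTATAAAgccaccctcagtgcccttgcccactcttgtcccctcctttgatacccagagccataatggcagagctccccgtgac
The Slc9a8 window held 2 GC boxes and no other motif of the 5. Slc26a6 had 1 GC box and 2 CCAAT boxes, Slc9a3 had 1 E-box and 3 GC boxes, and Slc12a3 had 2 GC boxes, 1 CCAAT box and 1 TATA box. Of all 32851 RefSeq windows, 7.15% held the E-box, 35.7% the GC box, 37.4% the CCAAT box, 13.6% the TATA box and 1.79% the cyclic AMP response element. Windows were found for 24 of the 37 members, and in their 32 windows the shares were 18.8%, 56.2%, 37.5%, 18.8% and 0%. These matches are letters in a window and no motif was shared by both members that fell apart from the GC box.

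None of the 9 Slc4 members tested changed. Slc4a4 was at 2293, 2734, 2544 and 2419 CPM in young mice and at 2308, 2790, 2415 and 2542 CPM in aged mice. The groups interleaved, with a log2 fold change of 0.01 and a 95% interval of -0.25 to 0.27. The anion exchangers of intercalated cells were Slc4a1 (AE1), on the basolateral side of type A cells, and Slc4a9 (AE4), of type B cells. Slc4a1 was at 40.1 ± 10.4 CPM in aged and 43.7 ± 4.26 CPM in young mice (log2 fold change -0.13), and Slc4a9 at 58.5 ± 7.39 and 68.8 ± 9.87 CPM (-0.23). Slc4a1 is also the band 3 protein of red blood cells. Of their markers, Hba-a1, Hba-a2, Hbb-b1 and Hbb-b2 were listed at 0 in all libraries. The sources give no reason for these 0 counts, which are not read as a level. The red blood cell marker Alas2 was at 14.4 ± 5.36 CPM in aged and 17.4 ± 7.06 CPM in young mice. Slc4a2 (AE2), widely expressed, was at 43.8 CPM in aged mouse 1 and 58.5 to 61.4 CPM in the other aged mice, against 58.7 to 68.9 CPM in young mice (log2 fold change -0.22, and -0.12 without aged mouse 1). Slc4a8, a sodium-driven chloride bicarbonate exchanger, was at 8.99 ± 1.68 CPM in aged and 11.5 ± 0.693 CPM in young mice (log2 fold change -0.35, SE 0.15, edgeR adjusted p = 0.174).

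The electroneutral cotransporter Slc4a7, the electrogenic Slc4a5 and the anion exchanger Slc4a3 had positive log2 fold changes of 0.27, 0.71 and 0.21 that did not pass. For Slc4a5 and Slc4a7 the value came mostly from aged mouse 1, at 2.85 and 48.5 CPM, and without it the log2 fold changes were 0.22 and 0.02. Slc4a11, a transporter related to the bicarbonate carriers, had the widest spread of all members. It had 381, 52, 20 and 20 counts in aged mice and 148, 24, 20 and 64 in young mice, so that aged mouse 1 and young mouse 1 were the highest of their groups. These are the libraries with the Slc14a2 counts given above, and Cryab, abundant in the renal medulla, was likewise highest in them at 251.3 and 84.1 CPM. The part of medullary tissue in the Slc4a11 counts was not tested. Its log2 fold change was 0.65 with all mice, -1.10 without aged mouse 1, 1.51 without young mouse 1 and -0.24 without both, and none of these passed.

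No Slc12 member changed. Among the sodium-coupled cotransporters, Slc12a3 (NCC), the salt carrier of the distal convoluted tubule, was at 919, 1156, 903 and 636 CPM in young mice and at 1164, 1215, 1298 and 1328 CPM in aged mice. Every aged mouse was above every young mouse, by a small margin between aged mouse 1 and young mouse 2. The log2 fold change was 0.47 (SE 0.17, 95% interval 0.09 to 0.85), and the adjusted p was 0.133 by edgeR and 0.0560 by DESeq2. In this gene 14.2% of the transcript had near-identical copies elsewhere in the genome, so part of its counts may have been lost or shared. Slc12a1 (NKCC2), the salt carrier of the thick ascending limb, was at 1545, 862, 832 and 1087 CPM in young mice and 1407, 1120, 664 and 910.0 CPM in aged mice. Its groups interleaved, with the mouse 1 library highest in each, and the log2 fold change was -0.08 (95% interval -0.68 to 0.52), -0.27 without aged mouse 1 and 0.14 without young mouse 1. Slc12a2 (NKCC1), a basolateral relative, was at 113 ± 35.1 CPM in aged mice, of which aged mouse 1 had 165, and at 119 ± 5.84 CPM in young mice. Its log2 fold change was -0.07 with all mice (edgeR adjusted p = 0.821) and -0.31 without aged mouse 1 (adjusted p = 0.0520).

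Potassium chloride cotransporters let chloride out of the cell. One of them, Slc12a7 (KCC4), was at 247, 338, 298 and 269 CPM in young mice and at 160, 217, 201 and 271 CPM in aged mice. Aged mouse 4 lay inside the young range and the other 3 aged mice lay below it. Its log2 fold change was -0.44 with all mice (SE 0.16, edgeR adjusted p = 0.142) and -0.58 without aged mouse 4 (adjusted p = 0.0482), which is under 1.5-fold. Slc12a4 (KCC1) was at 22.9 ± 1.72 CPM in aged and 23.1 ± 2.43 CPM in young mice, and Slc12a5 (KCC2), known from neurons, was low at 2.44 ± 0.210 and 2.33 ± 0.379 CPM. Slc12a9 and Slc12a8, whose substrates are less clear, had log2 fold changes of 0.12 and 0.25.

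Of the calcium exchangers, Slc8a1 (NCX1), which passes calcium to the blood side in the distal convoluted and connecting tubule, was at 944, 1117, 812 and 645 CPM in young mice and 329.8, 717, 756 and 705 CPM in aged mice. Aged mouse 1 was the lowest and the other 3 aged mice were within the young range. The log2 fold change was -0.49 (SE 0.27, edgeR adjusted p = 0.276) and -0.28 without aged mouse 1. The summed level of 6 connecting tubule markers was 1579 to 3167 CPM in aged mice, lowest in aged mouse 1, and 3568 to 4310 CPM in young mice. Of the 6, 0 passed in edgeR and DESeq2 called 3, while over all 13944 genes DESeq2 called 873. At an unadjusted p below 0.05, 3 were lower (50%, against 12.1% of all genes). With the mean log2 CPM of these markers subtracted, Slc8a1 differed by 0.06 between aged and young mice (two-sided exact permutation test, p = 0.714), and the groups overlapped. The part of these cells in the Slc8a1 values was not tested. Slc24a6, the mitochondrial sodium calcium exchanger now named Slc8b1, was at 13.1, 12.4, 13.9 and 12.6 CPM in young mice and 26.2, 19.97, 13.6 and 15.5 CPM in aged mice. Its log2 fold change of 0.53 (SE 0.19, edgeR adjusted p = 0.134) came with 1 aged mouse inside the young range, and it was 0.33 without aged mouse 1 (adjusted p = 0.168), the highest of the 8 mice. Slc24a3, a potassium-dependent exchanger, was at 3.40 ± 1.27 CPM in aged and 2.35 ± 0.760 CPM in young mice.

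The remaining 11 members did not reach 10 counts in 4 libraries, and no change is given for them. Slc24a1, the exchanger of rod photoreceptors, and Slc26a5 (prestin), the motor protein of outer hair cells, had no count in any library, which allows at most 3 counts a library. Slc8a3 and Slc8a2, which are known from muscle and brain, had a count in every library, up to 12 and 7. Slc24a5, the pigment cell exchanger, had at most 8 counts, Slc4a10 at most 5 and the intestinal chloride exchanger Slc26a3 at most 4. Slc24a2, Slc24a4, Slc26a9 and Slc9a10 had at most 2 counts in any library.

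To set 10 well known members beside the other genes of their segment, the mean log2 CPM of the segment's markers was subtracted from that of the member in each mouse. Relative to 13 proximal tubule markers, Slc26a6 was lower in aged than in young mice by a log2 difference of -0.74 (two-sided exact permutation test over 70 orders, p = 0.0286, below which groups of 4 cannot go). Its values were -7.25, -7.35, -6.71 and -7.01 in young mice and -7.42, -7.85, -7.93 and -8.09 in aged mice, without overlap. Slc9a3 relative to the same markers differed by -0.43 (exact p = 0.0286), also without overlap. Slc12a3 relative to 7 distal convoluted tubule markers differed by 0.60 (exact p = 0.0571), and its own log2 fold change was 0.47. Of these 7 markers 5 had positive and 2 negative log2 fold changes, with a median of 0.10 and a lowest value of -1.03. Their mean log2 CPM differed by -0.10, so most of the list did not fall. Slc4a4 relative to the proximal tubule differed by 0.27 (exact p = 0.0571). The Slc4a4 value was highest at 1.65 in aged mouse 1, the mouse with the lowest proximal tubule markers. None passed after Benjamini-Hochberg adjustment over the 10 comparisons (0.143 for each of these 4 exact tests). Since the exact p cannot go below 0.0286, no member could pass this adjustment on its own, whatever its difference. The adjusted values therefore cannot decide for a single member. The other 6, Slc26a1, Slc12a1, Slc8a1, Slc4a1, Slc4a9 and Slc26a4, differed by -0.47 to 0.17, with exact p from 0.171 to 0.914.

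**Figure D4:**
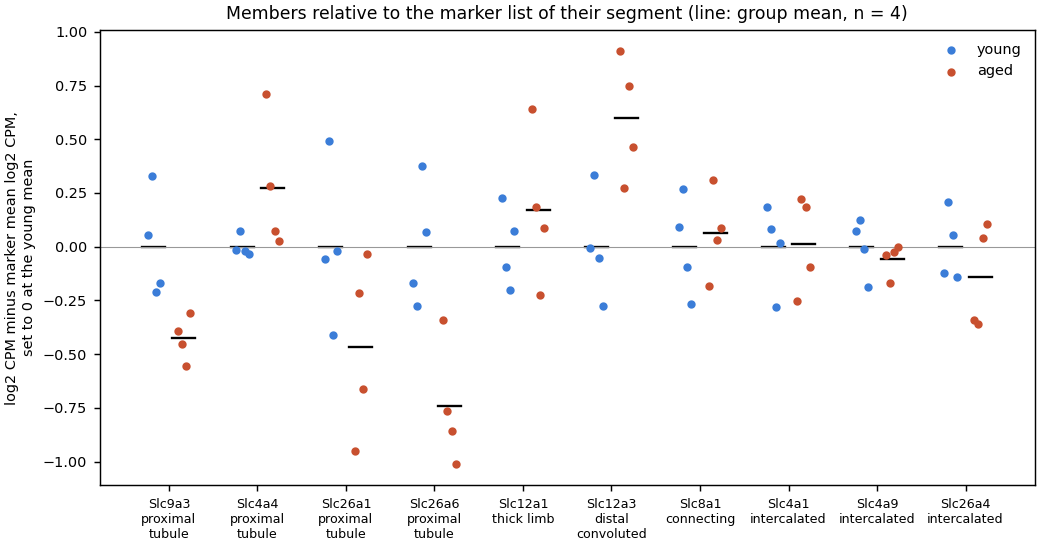
Log2 CPM of 10 members minus the mean log2 CPM of the marker list of their segment, set to 0 at the young mean, with one point per mouse and a line at the group mean (n = 4). Aged points lie below all young points for Slc9a3 (difference -0.43) and Slc26a6 (-0.74), and those of Slc12a3 lie mostly above (0.60), while the intercalated cell members overlap.

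Genes that anchor or regulate these transporters were read from the same edgeR fit. Of 9 tested partners of Slc9a3 at the brush border, 0 changed by edgeR or DESeq2. At an unadjusted p below 0.05, 3 were lower (33.3%, against 12.1% of all genes) and 1 was higher (11.1% against 13.4%). The scaffold Slc9a3r1 (NHERF1) was at 136, 219, 214 and 288 CPM in aged mice and 309 to 336 CPM in young mice (log2 fold change -0.58, SE 0.19, edgeR adjusted p = 0.113). The scaffold Pdzk1 was at 277.8, 846, 742 and 947 CPM in aged mice and 1132 to 1190 CPM in young mice (log2 fold change -0.72, edgeR adjusted p = 0.189), and without aged mouse 1 the log2 fold change was -0.45 (adjusted p = 0.0354), under 1.5-fold. For both scaffolds, as for Slc9a3 itself, every aged mouse was below every young mouse and aged mouse 1 was lowest. Such a separation was found in 3 of the 9 partners (33.3%, against 10% of all genes). Ezr, which ties the scaffolds to actin, had a log2 fold change of -0.23 (edgeR adjusted p = 0.159).

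Among 13 tested genes of the kinase pathway that sets Slc12 cotransporter activity, 1 changed (7.69%, against 0.889% of all genes called lower). This gene was Wnk2, a member of the WNK kinases. It fell from 6.90, 6.19, 7.48 and 7.56 CPM in young mice to 5.06, 3.38, 3.79 and 4.03 CPM in aged mice, without overlap. The log2 fold change was -0.79 (SE 0.16, edgeR adjusted p = 0.0439), and the adjusted p was 0.0712 and 0.0791 without aged mouse 2 or 3 and 0.0954 to 0.136 without 1 of the young mice. Wnk1 and Wnk4, the WNK kinases best known in the distal nephron, had log2 fold changes of 0.03 and 0.04, and their target kinases Stk39 (SPAK) and Oxsr1 had 0.01 and -0.12. The ubiquitin ligase Nedd4l was at 115 to 147 CPM in aged and 166 to 182 CPM in young mice (log2 fold change -0.38, edgeR adjusted p = 0.0597). Sgk1, an aldosterone- and stress-responsive kinase, was at 489.5, 82.2, 266 and 105 CPM in aged mice and 66.6 to 98.5 CPM in young mice. Only aged mouse 2 of these lay inside the young range, and the log2 fold change of 1.61 (SE 0.51) did not pass (edgeR adjusted p = 0.103). Without aged mouse 1 it was 0.96 (edgeR adjusted p = 0.135).

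Of 12 tested carbonic anhydrases, which supply the bicarbonate and protons, 0 changed by edgeR and 1 by DESeq2. Over all 13944 genes DESeq2 called 873. At an unadjusted p below 0.05, 1 was lower (8.33%, against 12.1% of all genes) and 2 were higher (16.7% against 13.4%). The membrane-bound Car4 was at 61.7, 115, 100.2 and 186 CPM in aged mice and 184 to 215 CPM in young mice (log2 fold change -0.78, SE 0.28, edgeR adjusted p = 0.128). Cytosolic Car2 was at 262 ± 94.1 CPM in aged and 270 ± 30.6 CPM in young mice. Among 12 channels and sodium pump subunits that work beside the cotransporters, 0 changed by edgeR or DESeq2. At an unadjusted p below 0.05, 4 were lower (33.3%, against 12.1% of all genes) and 1 was higher (8.33% against 13.4%). The pump subunit Atp1b1 (log2 fold change -0.34) and the potassium channels Kcnj16 (-0.38) and Kcnj10 (-0.21) were lower in every aged than in every young mouse. Such a separation was found in 4 of the 12 (33.3%, against 10% of all genes). Of 11 tested genes of the intercalated cell proton pump and its factors 0 changed by either tool. At an unadjusted p below 0.05, 3 were lower (27.3%, against 12.1% of all genes), among them the pump subunit Atp6v1c2 (log2 fold change -0.47, edgeR adjusted p = 0.0730).

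Set against the young mean mouse by mouse, the members did not deviate alike in all aged mice. In aged mouse 1 the log2 deviations were -1.88 for Slc9a8, -1.77 for Slc26a1, -1.39 for Slc8a1 and -1.21 for Slc9a3. In aged mouse 4 the same genes were at -0.71, -0.03, -0.29 and -0.31. Slc26a6 varied less between aged mice than these 4 genes, with -1.14, -0.87, -0.96 and -0.9997 in the 4 aged mice.

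**Figure D5:**
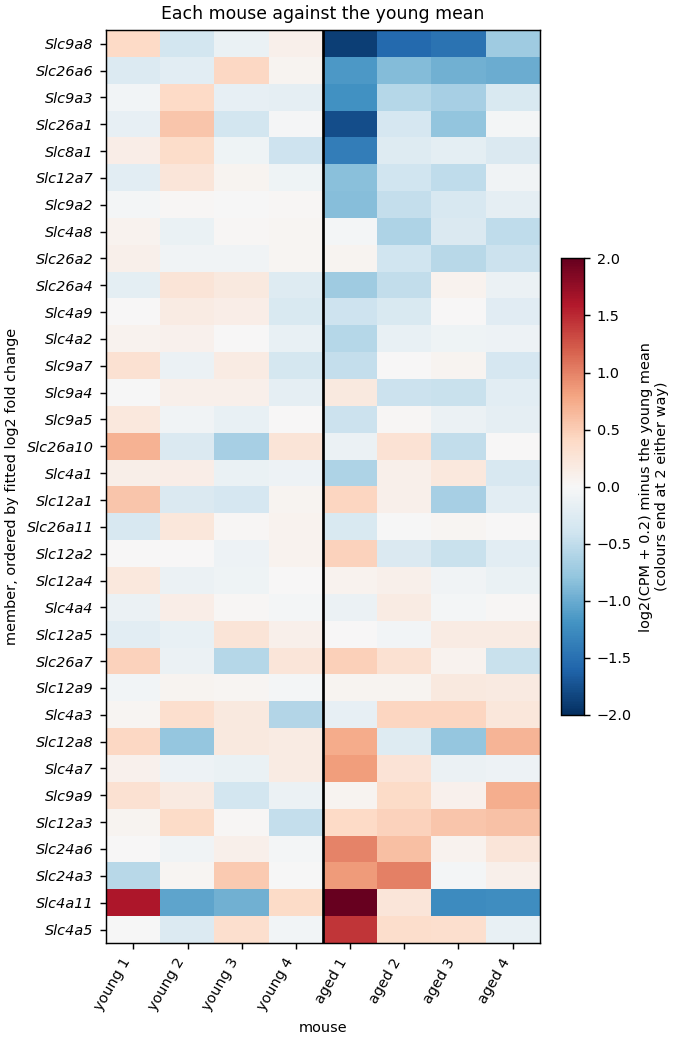
Log2 deviation of each mouse from the young mean for 34 of the 37 members, ordered by fitted log2 fold change, with lower values in blue and higher values in red and colours that end at 2 either way. The blue block at the top is deepest in aged mouse 1 (Slc9a8 at -1.88) and palest in aged mouse 4 (-0.71), apart from Slc26a6, which is even across the aged mice.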

How the data were processed

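RNA-Seq was performed on kidney cortex of 4 aged and 4 young mice. After depletion of ribosomal RNA the authors made stranded libraries, read paired ends of 100 bp, placed them on mm9 with TopHat2, assigned them to RefSeq genes with strand-aware HTSeq, and deposited raw counts. CASAVA 1.8.2 and SAMtools are also named in their processing notes, and other versions are not given in the sources used here. Lines naming no gene (59.4% to 64.5% of each total) were left out. Counts were normalized by TMM and fitted over all 8 libraries with no covariate in edgeR 4.0.16 (R 4.3.3), quasi-likelihood, filterByExpr with a minimum count of 10, and Benjamini-Hochberg adjustment over 13944 genes. Log2 CPM used a prior count of 2. Members were described by their positions and lengths in the GENCODE annotation of mm9, and copies were sought with BLAST 2.17.0 (98% identity, 100 nt). Alternatives were other scalings, DESeq2 1.42.0, limma-voom 3.58.1, robust fitting, other filters, mean FPKM above 1, the replicate number as a block and each mouse left out. Counts of Slc12a3 and Slc24a6 (14.2% and 4.66% of the transcript in copies), and of Slc12a5, Slc24a3 and Slc9a4, which overlap another annotated gene on the same strand, are less certain. Genes named are members and listed partners and markers, a few of which are counted in the totals but not reported here. Members and lists were chosen with earlier results of these data known. The tests were run on simulated data first. Whether the counts of pairs aligned to several places overlap other lines was not checked.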

Additional observations from a re-analysis of the deposited data

Results flagged for a closer look

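In 94 groups of 4 log2 values (37 members and 10 ratios to segment markers, each in aged and in young mice), Dixon's rule was applied at the 95% level. It compares the gap between the most extreme mouse and its nearest neighbour with the range of the group. Each ratio of gap to range given here is on the log2 scale, whereas the CPM printed beside it are not logged. The limit was exceeded in 4 groups, and about 4.7 are expected by chance. Aged mouse 1 was the lowest of the aged mice for Slc8a1, the basolateral sodium calcium exchanger (ratio 0.916, 329.8 CPM against 705 to 756), for the anion exchanger Slc4a2 (ratio 0.855, 43.8 CPM against 58.5 to 61.4) and for the sulfate carrier Slc26a11 (ratio 0.848, 9.48 CPM against 11.6 to 12.1). Young mouse 2 was the highest of the young mice for the level of Slc4a4 relative to the proximal tubule markers (ratio 0.843, a log2 value of 1.02 against 0.91 to 0.93).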

How the results depend on the processing

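The fall of Slc9a8 and Slc26a6 kept its direction under every alternative run and its call under the other scalings, tools and filters. Members changed numbered 2, 3 by DESeq2, 0 with the replicate number as a block (replicate block; both at an edgeR adjusted p of 0.0507), 0 with aged mouse 1 and young mouse 1 left out together (chosen after seeing the data), and 0 to 4 with each mouse left out; members past the adjusted p alone numbered 4 by DESeq2, 4 by limma-voom, 0 with the block, 0 with both mice out and 0 to 6 with each mouse left out. The numbers were not taken to pair the mice, since deviations of same-numbered mice correlated at only -0.030 to 0.21, although 3 of 4 aged mice correlated best with their own number. Changed partner genes numbered 0 by library size only, 0 with the block and 0 to 3 with each mouse left out. Members without overlap numbered 5 with all mice and TMM (13.5%, against 18.9% of all genes). They numbered 5 to 7 by the other scalings and 5 to 9 with each mouse left out. The share of all genes was not computed for those settings, and a smaller group separates more easily. Over all genes 287 changed, against 873 by DESeq2, 488 by library size only, 483 by limma-voom, 130 with the block, 51 with both mice out and 8 to 733 with each mouse left out. The lowest of these were the fits without young mouse 1, 2, 3 or 4, at 8, 35, 14 and 12. Library size only moved the median of all genes by 0.11.

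Reversed log2 values, all small or uncalled, were 0.035 for Slc12a1, 0.043 for Slc12a2, 0.037 for Slc26a11 and 0.10 for Slc12a4 by library size only, 0.028 for Slc12a4 by upper-quartile scaling, -0.18 for Slc12a8 and -0.54 for Slc4a11 by limma-voom, and, with both mice out, 0.037 for Slc12a4, 0.17 for Slc26a10, 0.049 for Slc4a1, -0.24 for Slc4a11 and 0.0038 for Slc9a7. With the median of the markers the ratios were -0.093 for Slc12a1, -0.036 for Slc8a1 and -0.058 for Slc4a1. With each mouse left out the ranges crossing 0 were Slc12a1 -0.27 to 0.14, Slc12a2 -0.31 to 0.031, Slc12a4 -0.049 to 0.060, Slc12a5 -0.00027 to 0.17, Slc12a8 -0.045 to 0.54, Slc26a10 -0.40 to 0.15, Slc26a11 -0.17 to 0.0077, Slc26a7 -0.078 to 0.29, Slc4a1 -0.26 to 0.010, Slc4a11 -1.10 to 1.51 and Slc4a4 -0.045 to 0.058, and for the ratios Slc8a1 -0.027 to 0.15 and Slc4a1 -0.079 to 0.10. The cause was not tested. Depth limits Slc26a10, Slc26a7, Slc4a5 and Slc12a8, with few counts a library.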

Other observations

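Marker lists of other cell types, chosen as described in the processing, were read from the same edgeR fit. Of 5 podocyte and 5 endothelial markers 0 changed and 0 had an unadjusted p below 0.05, and their medians were 0.02 and 0.07 on the log2 scale. Of 6 markers of interstitium and muscle 0 changed by edgeR and 2 by DESeq2, which called 873 of all 13944 genes. At an unadjusted p below 0.05, 3 were lower (50%, against 12.1% of all genes). Among them were the collagens Col1a1 (log2 fold change -1.20, edgeR adjusted p = 0.0729) and Col3a1 (-1.24, adjusted p = 0.0559). In 3 of these 6 (50%, against 10% of all genes) every aged mouse lay below every young mouse, and the median log2 fold change of the 6 was -0.37. Without aged mouse 1, Col1a1 (-0.93, edgeR adjusted p = 0.0184) and Col3a1 (-1.003, adjusted p = 0.0196) passed. Of 7 tested leukocyte markers 1 changed (14.3%, against 0.889% of all genes called lower). This was the macrophage receptor Csf1r, lower at 31.0 ± 8.38 CPM in aged against 62.0 ± 13.9 CPM in young mice (n = 4, edgeR adjusted p = 0.0472). Its edgeR adjusted p was 0.0737 and 0.0821 without aged mouse 2 or 3 and 0.0795 to 0.132 without 1 of the young mice. The other 6 leukocyte markers tested had positive log2 fold changes, and the median of the 7 was 0.30. None of the 13 proximal tubule, 8 thick limb, 7 distal convoluted tubule, 9 principal cell and 10 intercalated cell markers tested changed by edgeR. In the same order 3, 4, 1, 1 and 1 had an unadjusted p below 0.05. These are 23.1%, 50%, 14.3%, 11.1% and 10%, against 25.5% of all genes. Of the 4 thick limb markers 3 were lower and 1 higher, and the median log2 fold change of the 8 was -0.31. DESeq2 called 2 of the proximal tubule markers and none of the other 4 lists. Only 2 red blood cell and 2 medulla markers passed the filter on low counts, and 0 of them changed or had an unadjusted p below 0.05.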
